A study of Oryza sativa with 12 samples.

Results

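The genes described here are 63 probe sets of the Affymetrix rice genome array whose signal was lower in the osnadk1 mutant than in wild type (WT) on every array, under normal growth and under drought alike. They were chosen on the deposited log2 signals of 57194 probe sets, from which the control and reporter probe sets of the array had been left out. A probe set was taken when the highest of the 6 osnadk1 arrays lay below the lowest of the 6 WT arrays, when the mean difference was at least 0.7 log2 units, and when the WT mean was at least 7. OsNADK1 itself, the gene that the mutation disrupts, met these conditions and was left out. Since the difference between genotypes chose the members, it is given below as a description without a test.

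The study asked how leaf transcripts differ between WT and a plant that lacks OsNADK1, because the mutant was sensitive to drought. Both genotypes are japonica rice of cultivar Dongjin, and osnadk1 is a single line, homozygous for 1 T-DNA insertion in the gene, so whatever else that line carries cannot be told apart from the loss of OsNADK1. Arrays were made of 4 groups of 3, namely WT and osnadk1 under normal growth (day 0, soil moisture 47.3%) and WT and osnadk1 under drought (day 15, soil moisture 8.5%), with RNA from the youngest leaves that had fully expanded on plants 2.5 months old. A plant of each genotype shared a pot, and the treatments differ in the day of sampling too. The labels call the replicates biological without naming the plants behind each, so the p-values below cover only how far these arrays scatter.

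NAD kinases phosphorylate NAD and NADH to NADP and NADPH, and NADPH carries reducing power to biosynthesis and to the ascorbate and glutathione cycle that removes reactive oxygen. Calcium and reactive oxygen rise early in plant cells under drought, cold or attack by pathogens. EF-hand proteins such as calmodulin-like proteins bind that calcium and pass the signal on. MAP kinases and phosphatases relay it by adding and removing phosphate, and WRKY and other nuclear factors change transcription at the end of such chains. Genes of EF-hand proteins, a MAP kinase, a phosphatase and WRKY factors occur among the 63. None that the reference names for the ascorbate and glutathione cycle does.

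On every array the trimmed mean of the linear signals was close to 500.1, and the array medians ran from 5.08 to 5.43 on the log2 scale. OsNADK1 had signals of 3.96 to 5.65 on the osnadk1 arrays and of 9.43 to 10.27 on the WT arrays, as the genotype labels state. The 11 probe sets of leaf mesophyll genes tested had means of 10.8 to 12.1 on the 12 arrays and the 2 of root genes 4.87 to 6.93, and in whole leaves fewer cells of a type and less RNA per cell cannot be told apart. Label prefixes divide the arrays into sets A and B, each with all 4 groups, but osnadk1 holds 2 arrays of set A and 1 of set B in each treatment and WT the reverse. On the first principal component the 3 set A arrays of normal growth (osnadk1 replicates 1 and 2 and WT replicate 1) lay between 121.2 and 140.6 and the other 9 between -66.5 and -26.8. The WT arrays also carry a mark of re-analysis in their labels.

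Mean differences of the 63 probe sets ran from -3.0 to -0.72 log2 units with a median of -1.29, which is a 2.44-fold lower signal in osnadk1. At least 2-fold lower were 45, and at least 4-fold lower 13. Of all 32066 probe sets tested, taken as those at or above the array median on 3 or more arrays, 0.334% lay lower in osnadk1 without overlap, and all 63 members are among those tested. The rule turned round gave 47 probe sets higher in osnadk1. The space between the genotypes was small for many members. It was under 0.1 log2 units for 18 of them, over 0.5 for 9, and 0.745 for the widest, LOC4337127. In WT the members had a median level of 9.68, against 8.25 for all probe sets tested, and no WT array was below its own median for any of them, whereas 7 members had at least 1 osnadk1 array below its own median, where MAS5 signals vary most. Their median SD within a group was 0.428, against 0.422 for all probe sets tested, which are dimmer in WT and so not matched in level. By group the members' median SD was 0.52 in osnadk1 and 0.32 in WT under normal growth. Under drought it was 0.37 and 0.32.

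**Figure D1:**
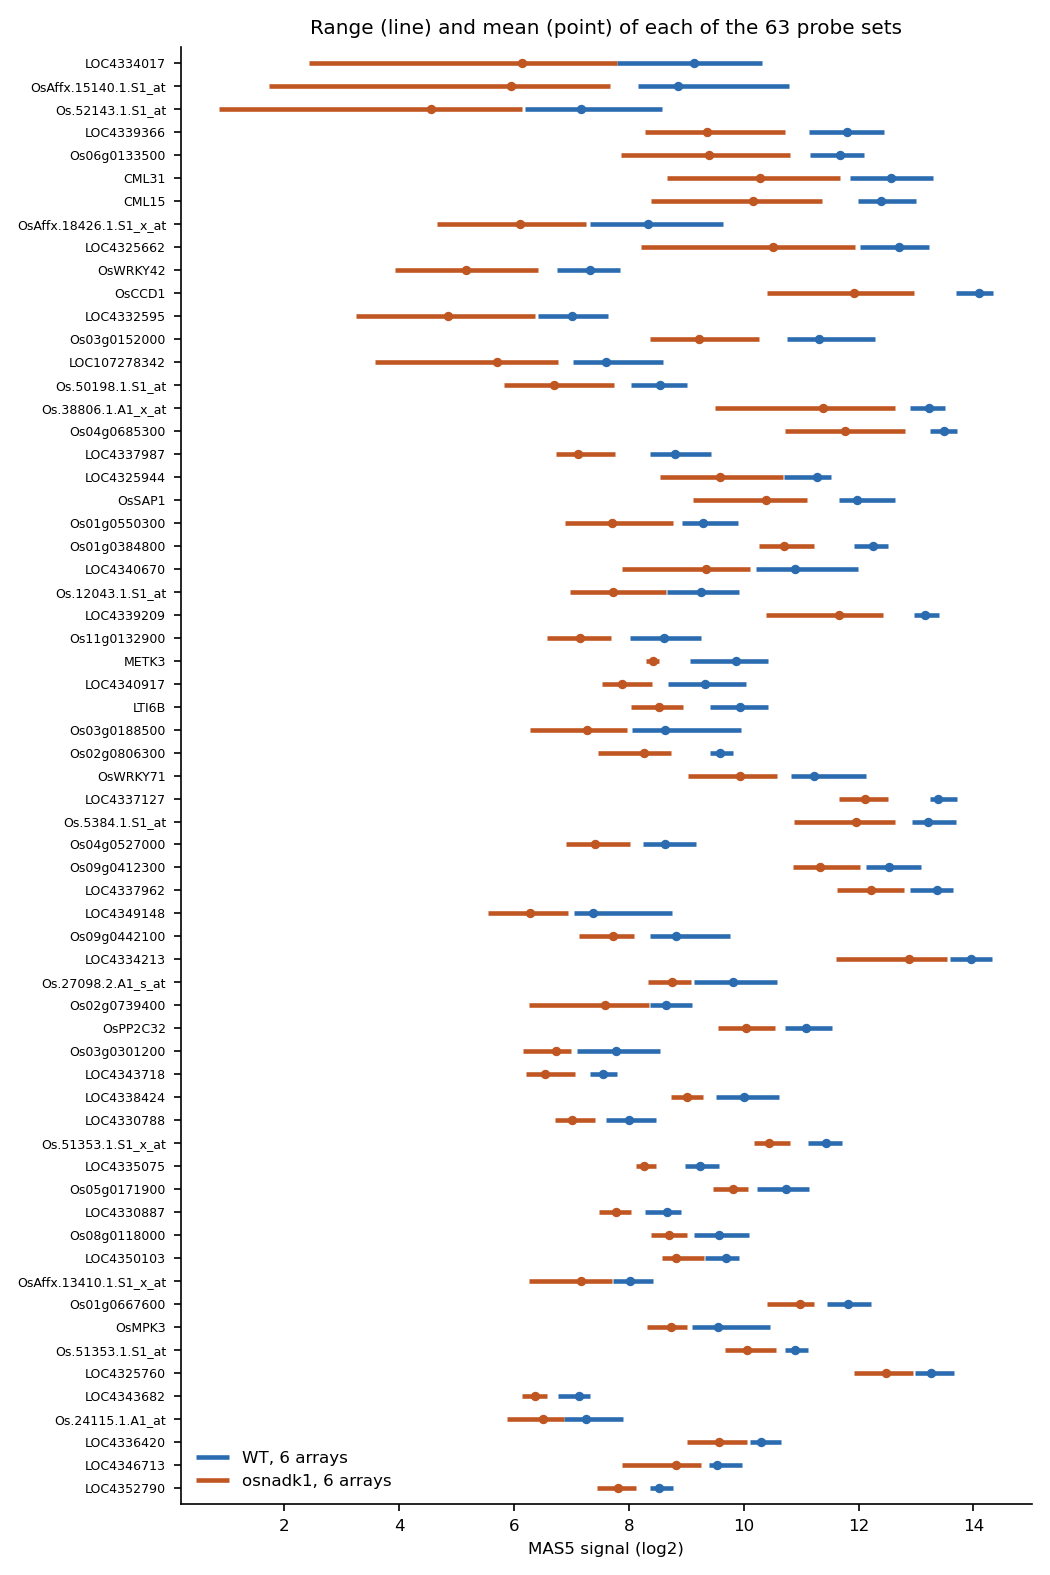
Each row is 1 of the 63 probe sets, ordered by mean difference, and the horizontal axis is the MAS5 signal in log2 units. Lines span the lowest to the highest of 6 WT (blue) or 6 osnadk1 (orange) arrays and points are the means. The lines never overlap, which the rule fixes, and the osnadk1 lines of the first 3 rows reach below 3.

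Just inside the limit of 0.7 were LOC4336420 at -0.73, LOC4346713 at -0.73 and LOC4352790 at -0.72. Just outside it were a second probe set of LOC4350103, whose first is a member, at -0.69, LOC4326701 at -0.69 and LOC4340752 at -0.67. By WT level, the members nearest the limit of 7 were LOC4332595 at 7.01, LOC4343682 at 7.14 and a probe set without a gene at 7.16, and LOC4352653 at 6.87, another without a gene at 6.82 and LOC4334989 at 6.74 fell short of it. The reference gives a single gene for 49 members, each a different one. The reference or the study's annotation gives a name or description for 28 members, of which 3 are described by composition only and 2 have conflicting genes. The other 35 have no function named here.

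Among the members that bind calcium, the calmodulin-like protein genes CML31 and CML15 and the small EF-hand protein gene OsCCD1 were between 4.51-fold and 4.86-fold lower in osnadk1, and the EF-hand gene Os09g0412300 was 2.32-fold lower. In WT, CML31 had signals of 13.30, 12.95 and 12.16 under normal growth and 12.71, 12.40 and 11.86 under drought, and in osnadk1 it had 11.56, 9.55 and 8.66 and then 11.68, 9.82 and 10.44. The mean was 12.56 ± 0.53 (SD, n = 6) in WT and 10.28 ± 1.18 in osnadk1. Replicate 1 was the highest osnadk1 array in both treatments and came within 0.184 log2 units of the lowest WT array. CML15 showed a similar spread, with 12.32, 13.01 and 11.98 and then 12.66, 12.25 and 12.16 in WT against 11.20, 9.31 and 8.38 and then 11.11, 9.57 and 11.36 in osnadk1. OsCCD1 was the brightest member in WT, at 14.35, 14.16 and 14.07 under normal growth and 14.18, 14.10 and 13.70 under drought. Its osnadk1 arrays read 12.47, 11.28 and 10.40 and then 12.96, 11.89 and 12.52. The SD over 6 arrays was 0.22 in WT and 0.94 in osnadk1. For Os09g0412300 the values were 13.08, 12.14 and 12.17 and then 12.55, 13.01 and 12.27 in WT, and 11.50, 10.87 and 10.92 and then 12.02, 11.45 and 11.18 in osnadk1, a narrow separation of 0.111.

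**Figure D2:**
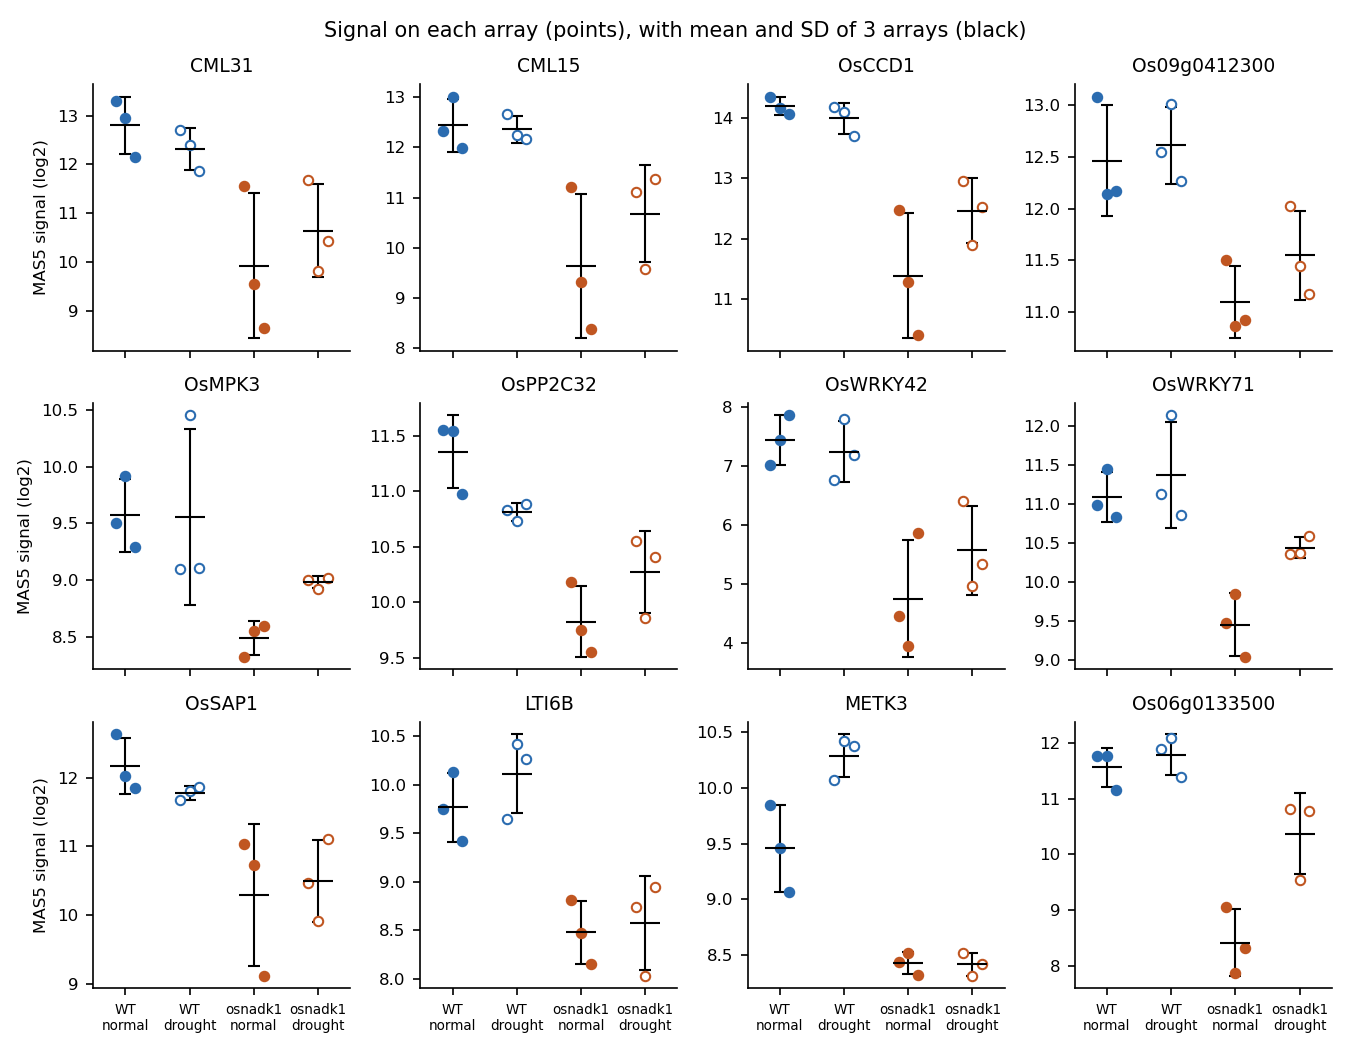
Each panel is 1 member, with the MAS5 signal (log2, axes differ and do not start at 0) of each array as a point, WT in blue and osnadk1 in orange, filled for normal growth and open for drought. Black bars give the mean and SD of 3 arrays. In METK3 the osnadk1 arrays lie within 8.31 to 8.52 while the WT arrays lie at 9.07 to 10.42.

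The 3 calcium-sensor genes with the larger differences also moved together from array to array. After each group's mean was taken off, CML31 and OsCCD1 correlated at r = 0.957 over the 12 arrays, CML15 and OsCCD1 at 0.902, and CML31 and CML15 at 0.863, and each r describes arrays that share their hybridisation and scaling. Os09g0412300 followed them less closely, at 0.276 to 0.68. The mean deviation of the 4 genes was 1.17 on osnadk1 normal replicate 1 and -0.917 on replicate 3, and on the WT arrays it kept between -0.379 and 0.289.

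**Figure D3:**
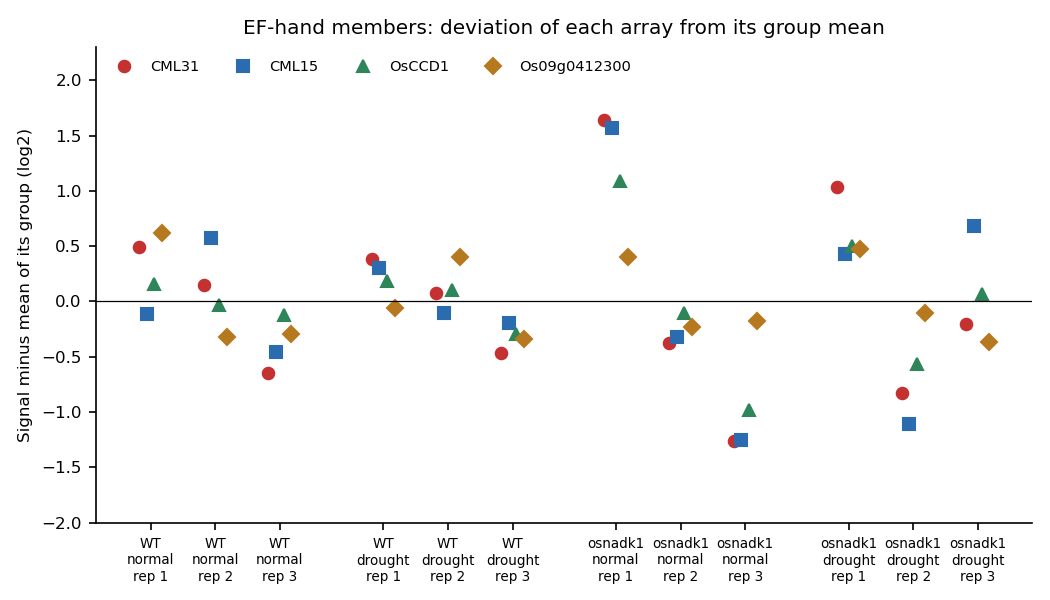
The vertical axis is the signal of each array minus the mean of its group of 3 (log2) for CML31, CML15, OsCCD1 and Os09g0412300, and the horizontal axis lists the 12 arrays. Points of CML31, CML15 and OsCCD1 lie together above 0 on osnadk1 normal replicate 1 and below 0 on replicate 3, and apart on osnadk1 drought replicate 3.

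Most other calmodulins and calmodulin-like genes differed less from WT. Of the list's 29 probe sets tested, 19 were below WT in the mean and the median difference was -0.13, against -0.01 over all probe sets tested. Under normal growth 6 of the 29, CML31 and CML15 included, were lower at an unadjusted p under 0.05 (limma) and 0 higher. Of all 32066 probe sets tested, 1056 were lower. An adjusted p of 0.05 was passed by 1, neither CML31 nor CML15. Under drought only CML31 and CML15 were lower at the unadjusted p, against 713 of all tested. The rule chose both genes by the genotype difference, so their own calls in either treatment are not a test. Besides CML31 and CML15, none lay lower without overlap. A dim probe set of CML4 had a mean difference of -1.77 on overlapping arrays (1.78 to 6.01 in osnadk1, 5.72 to 6.97 in WT), while the other two of that gene were at -0.37 and -0.11. CML16 had a mean difference of -1.36, also on overlapping arrays (9.69 to 12.44 in osnadk1, 11.99 to 13.02 in WT). The calmodulin genes CAM1, CAM2 and CAM3 differed by -0.24, -0.10 and -0.19. None of the 7 calcineurin B-like sensor probe sets was a member, and their median was -0.18. Under normal growth 3 of the 7 were lower at an unadjusted p under 0.05 (limma), and under drought 0.

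Protein kinase and phosphatase members had smaller differences. OsMPK3, a MAP kinase that acts in defence and stress signalling, was 1.77-fold lower. Its WT arrays read 9.50, 9.92 and 9.29 under normal growth and 9.10, 10.45 and 9.11 under drought, and its osnadk1 arrays 8.32, 8.55 and 8.60 and then 9.0, 8.92 and 9.02. Under drought a WT array, replicate 2, stood well above the other pair, the lower of which was 0.0783 above the highest osnadk1 array. Os09g0442100, annotated as kinase APK1B after an Arabidopsis kinase, read 8.42, 8.56 and 8.51 and then 8.37, 9.77 and 9.33 in WT, against 7.62, 7.64 and 7.13 and then 8.09, 7.77 and 8.05. The type 2C protein phosphatase gene OsPP2C32, of a class that includes brakes on abscisic acid signalling, was at 11.55, 11.54 and 10.98 and then 10.83, 10.73 and 10.89 in WT and at 10.18, 9.75 and 9.55 and then 10.55, 9.86 and 10.41 in osnadk1. Its difference was -1.53 under normal growth and -0.54 under drought. Most other genes of the families were near WT. The median difference was -0.02 over 17 MAP kinase probe sets, with 1 lower without overlap, and 0.01 over 64 phosphatase probe sets, with 2. Under normal growth 7 of the 64, OsPP2C32 included, were lower and 3 higher at an unadjusted p under 0.05 (limma). Of all 32066 probe sets tested, 1056 were lower and 874 higher. The rule chose OsPP2C32 by the genotype difference, so its own call is not a test.

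In the nucleus, OsWRKY42 and OsWRKY71 code for WRKY factors, which bind W-box DNA, and OsWRKY71 is known as a repressor of gibberellin signalling in rice aleurone and as a defence gene. OsWRKY42 was a dim gene, at 7.01, 7.43 and 7.85 under normal growth and 6.75, 7.79 and 7.18 under drought in WT. In osnadk1 it was at 4.45, 3.94 and 5.86 and then 6.41, 4.96 and 5.34, and 3 of those 6 arrays were below their own median. OsWRKY71 was brighter, at 10.98, 11.45 and 10.83 and then 11.12, 12.13 and 10.85 in WT against 9.47, 9.84 and 9.03 and then 10.35, 10.37 and 10.59. The drought arrays of osnadk1 were thus all above its arrays of normal growth and all below WT. A second probe set of OsWRKY71 differed by -0.72, with overlapping arrays. The reference names only 6 WRKY genes, whose 7 probe sets had a median of -0.02. They hold 1 member, so OsWRKY42 and OsWRKY71 are not both among them, and the median does not stand for the family. Under normal growth 2 of the 7 were lower at an unadjusted p under 0.05 (limma) and 0 higher. Of all 32066 probe sets tested, 1056 were lower and 874 higher. The rule fixed the call of the member. The paper reports further WRKY genes as lower in osnadk1 under normal growth.

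Os02g0806300, a GATA zinc finger gene, had a tight WT range of 9.81, 9.70 and 9.62 and then 9.42, 9.48 and 9.46, and read 7.47, 7.82 and 8.52 and then 8.73, 8.46 and 8.55 in osnadk1. GATA factors bind the sequence they are named after and are known in plants for roles in light and nitrogen responses. The AT-hook gene Os08g0118000, whose class binds AT-rich DNA, was at 10.10, 9.98 and 9.57 and then 9.43, 9.23 and 9.13 in WT and at 8.38, 8.39 and 8.74 and then 8.67, 9.0 and 9.01 in osnadk1. The WT drought arrays were all below the WT arrays of normal growth, and the genotypes were -1.38 apart under normal growth and -0.37 under drought. Os04g0527000, annotated as FIP1, had a mean of 8.62 ± 0.37 (SD, n = 6) in WT and 7.41 ± 0.52 in osnadk1.

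Stress and defence genes formed a group of 4. OsSAP1, an A20/AN1 zinc finger protein whose overexpression protects tobacco against cold, drought and salt, had 12.63, 12.03 and 11.85 and then 11.67, 11.80 and 11.87 in WT. On the osnadk1 arrays it had 11.03, 10.73 and 9.11 and then 10.47, 9.91 and 11.11, a 3.0-fold lower mean. Every WT array exceeded every osnadk1 array by at least 0.559. The harpin-inducing protein gene Os04g0685300, of a family first seen in tobacco treated with a bacterial elicitor, was at 13.25, 13.72 and 13.46 and then 13.31, 13.51 and 13.71 in WT, against 11.77, 10.72 and 11.29 and then 12.46, 11.56 and 12.81. LTI6B codes for a small hydrophobic membrane protein induced by cold. It had 9.75, 10.13 and 9.42 and then 9.65, 10.42 and 10.26 in WT, and 8.81, 8.47 and 8.16 and then 8.74, 8.03 and 8.95 in osnadk1. The osnadk1 arrays of both treatments were interleaved. The D-mannose binding lectin gene Os11g0132900 was at 8.61 ± 0.43 (SD, n = 6) in WT and 7.15 ± 0.45 in osnadk1. Over the 17 A20/AN1 probe sets tested the median was -0.15 and OsSAP1 was the 1 lower without overlap. Under normal growth alone their median was -0.29. There 7 of the 17, OsSAP1 included, were lower at an unadjusted p under 0.05 (limma) and 0 higher. Of all 32066 probe sets tested, 1056 were lower and 874 higher. Under drought OsSAP1 was the 1 lower, against 713 of all tested. The rule chose OsSAP1 by the genotype difference, so its own calls are not a test. The 3 LTI6 probe sets, of only 2 genes, had a median difference of -0.64, which is the value of LTI6B's own second probe set.

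METK3, which codes for an S-adenosylmethionine synthetase and so makes the donor of methyl groups and the precursor of ethylene and polyamines, had the steadiest osnadk1 values of all members, with an SD of 0.0946 over 6 arrays. They were 8.44, 8.52 and 8.32 under normal growth and 8.52, 8.31 and 8.42 under drought. In WT it had 9.85, 9.46 and 9.07 and then 10.07, 10.42 and 10.38, so all WT drought arrays were above all WT arrays of normal growth. Among the 7 probe sets of S-adenosylmethionine, ethylene and polyamine synthesis tested it was the 1 lower without overlap, and their median was -0.01.

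Other metabolic and trafficking members covered a wide span of levels. Os03g0152000, a gene with a heavy-metal-associated domain, which binds metal ions, was at 11.09, 12.29 and 10.80 and then 12.03, 10.88 and 10.75 in WT and at 9.38, 8.36 and 8.57 and then 10.27, 8.62 and 10.16 in osnadk1, 4.23-fold lower. The lactoylglutathione lyase gene Os05g0171900, whose class removes methylglyoxal with glutathione, had 10.74 ± 0.34 (SD, n = 6) in WT and 9.82 ± 0.24 in osnadk1. The Rab11B-related gene Os01g0667600, of the GTPases that steer vesicles, had 11.82 ± 0.30 and 10.99 ± 0.36. COBRA-like proteins help to lay down cellulose, and the gene of one, Os03g0301200, was 2.04-fold lower. The glycosyl transferase gene Os02g0739400 was 2.08-fold lower, with a space of 0.0156 between the genotypes, and Os03g0188500, of the glutelin seed storage family, was 2.57-fold lower. No gene that makes or regenerates NADPH or removes reactive oxygen was a member among those the reference names. Tested were 13 probe sets of the ascorbate and glutathione cycle, catalases and superoxide dismutases, and 4 of NAD kinases and NADP-linked dehydrogenases. Of these 0 were lower and 0 higher without overlap, with medians of 0.06 and 0.26. OsNADK1 itself, at -4.73, is not among the 4.

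For 3 members only the composition is known. Os06g0133500, with a glutamine-rich domain, had 11.77, 11.76 and 11.15 under normal growth and 11.89, 12.09 and 11.38 under drought in WT, against 9.05, 7.86 and 8.32 and then 10.81, 9.53 and 10.77 in osnadk1. All of its osnadk1 drought arrays lay above all of its osnadk1 arrays of normal growth. Os01g0384800, a PRAS-rich protein, had 12.50, 12.30 and 12.51 and then 12.26, 12.07 and 11.92 in WT and 10.43, 10.32 and 10.28 and then 11.18, 10.75 and 11.23 in osnadk1. None of the 4 groups overlapped another, with WT normal highest and osnadk1 normal lowest. Os01g0550300, asparagine-rich, was at 9.29 ± 0.33 (SD, n = 6) and 7.71 ± 0.71.

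The largest mean differences belonged to genes without a named function, and they rested on wide osnadk1 spreads. LOC4334017 had 9.47, 10.32 and 9.16 and then 9.66, 8.39 and 7.79 in WT and 7.27, 2.43 and 4.98 and then 7.76, 6.59 and 7.79 in osnadk1. Its mean difference was -3.0, and yet the highest osnadk1 array and the lowest WT array, both of drought, were 0.00386 apart. The member with the second-largest difference, to which the reference assigns no gene, had 10.79, 8.63 and 8.44 and then 8.59, 8.16 and 8.56 in WT and 7.55, 5.58 and 1.74 and then 7.68, 6.32 and 6.86 in osnadk1. For the third in order, also without a gene, the values were 8.58, 7.45 and 7.03 and then 7.09, 6.63 and 6.2 in WT and 6.14, 6.09 and 0.87 and then 5.82, 3.33 and 5.08 in osnadk1. Both had their lowest value on osnadk1 normal replicate 3. LOC4339366 was brighter and steadier, at 11.62, 12.45 and 12.25 and then 11.53, 11.13 and 11.86 in WT and at 9.39, 8.29 and 9.04 and then 10.06, 8.63 and 10.72 in osnadk1. The eighth in order, again without a gene, had 8.67, 9.64 and 8.33 and then 8.53, 7.33 and 7.51 in WT and 6.31, 5.25 and 4.66 and then 7.25, 6.08 and 7.11 in osnadk1. Over all 35 members without a named function the differences ran from -3.0 to -0.72 with a median of -1.11, and 21 were at least 2-fold lower.

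Second probe sets of the same genes did not always show the member's difference. LOC4350103 had one at -0.69 without overlap and another, dimmer but at or above the median on all 12 arrays, at 0.27 in the opposite direction. LOC4352790 had one at -0.74, with overlapping arrays, and one at 0.65 in the opposite direction, the latter below the median on every array. A pair of probe sets without a gene that come from the same transcript cluster are both members (-0.99 and -0.83) and share a target. OsWRKY71, LTI6B, LOC4325662 and Os05g0171900 had other probe sets at -0.72, -0.64, -0.60 and -0.92, all with overlapping arrays. LOC4335075 had 2, at -0.52 and -0.35, and Os05g0171900 a further one, mostly below the median, at -0.29. The other probe set of the GATA gene Os02g0806300, at 10.52 in WT, differed by 0.21 in the opposite direction, and that of LOC107278342 by -0.09. A further 2 members have conflicting genes. The reference assigns the first (-1.84) to CDKE-1, a cyclin-dependent kinase, and the second (-1.83) to LOC4334438, while the study's annotation gives each another locus. Other probe sets of CDKE-1 and LOC4334438 differed by -0.14 and 0.09.

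Few members lay near OsNADK1 on the chromosome. No 2 member genes lay within 10 protein-coding genes of each other in the reference order, and 13 of the 49 (26.5%) had another within 50 genes, as did 15.7% of the 15244 genes tested. Within 100 genes the shares were 30.6% and 29.2%. CML31 was the nearest to OsNADK1, 11 genes away, and LOC4325760 was 50 genes away. Of 12 tested probe sets of the 8 genes within 10 genes of OsNADK1, 0 were lower without overlap, and their differences ran from -0.69 to 0.62 with a median of 0.06.

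For most members the genotypes were further apart under normal growth than under drought. Under normal growth the median difference was -1.61, under drought it was -1.03, and 54 of the 63 had the larger difference under normal growth. For those 54 osnadk1 minus WT was higher under drought than under normal growth, as it was for 55.0% of all probe sets tested. In set A the medians were -1.57 and -1.06 and in set B -1.62 and -0.86, in the same order, and the difference was below 0 for all 63 in each set and treatment, which the absence of overlap fixes. LOC4334017 moved from -4.76 to -1.24 and the member eighth in order of difference from -3.48 to -0.98. METK3 went the other way, from -1.03 to -1.87, as did LTI6B (-1.29 to -1.54) and Os04g0527000 (-0.96 to -1.47). LOC4332595 was at -2.17 and -2.12. In a fit over all probe sets tested (limma), the interaction of genotype and drought passed an adjusted p of 0.05 for 0 members and for 0% of all probe sets tested. At an unadjusted p under 0.05 there were 16 members (25.4%) against 3.95% of all probe sets tested, and 15 of them (23.8%) had a smaller difference under drought, against 2.33% of all tested in that direction. The interactions were 1.06 ± 0.21 log2 units (± SE) for Os01g0384800, 1.01 ± 0.27 for Os08g0118000, 2.50 ± 0.74 for the member eighth in order and -0.84 ± 0.28 for METK3 (limma, adjusted p = 0.975 for each). The rule averages both treatments, so a probe set with a large difference in 1 treatment meets it more easily, and the number of members at an unadjusted p is not independent of it. Without the 3 set A arrays of normal growth the member second in order passed (5.31 ± 0.60 on the log2 scale, limma, adjusted p = 0.0408), and with set B alone 12 members passed, when 13 and 370 of all probe sets passed in these fits, both with a single osnadk1 array of normal growth.

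**Figure D4:**
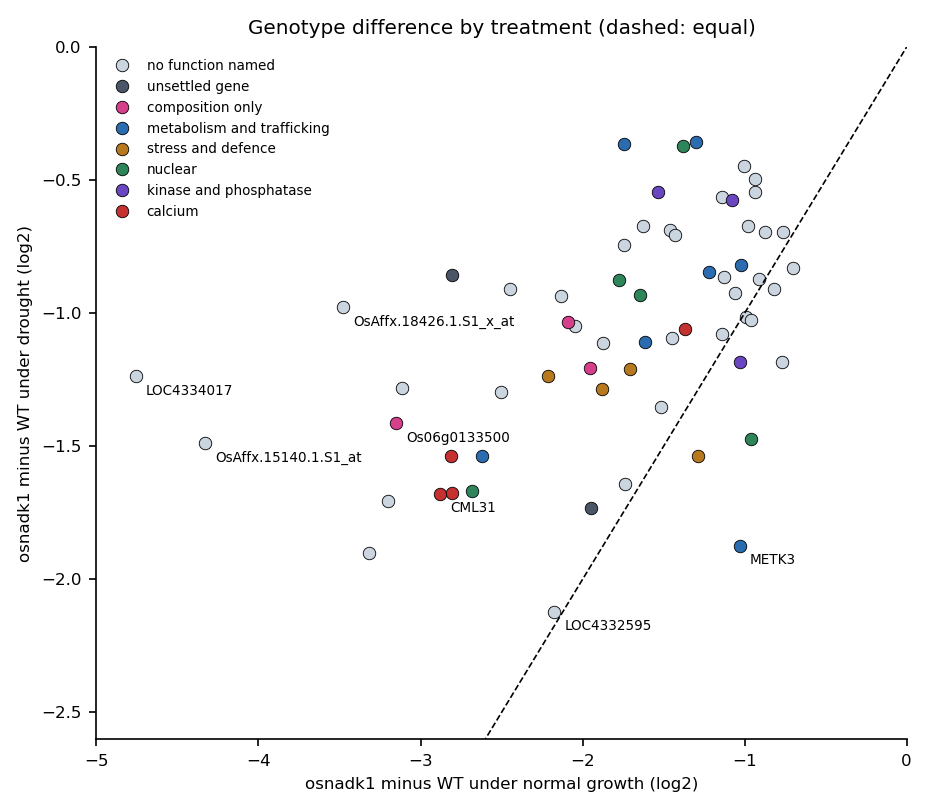
Each point is 1 of the 63 members, coloured by class, with the mean difference osnadk1 minus WT (log2) of 3 arrays a group under normal growth on the horizontal axis and under drought on the vertical axis. The dashed line marks equal differences, and 54 points lie above it, with METK3 furthest below.

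Few members passed a test for drought. In WT 43 of the 63 were lower under drought, with a median of -0.16 log2 units, and in osnadk1 55 were higher, with a median of 0.47, against medians of 0.02 and 0.09 over all probe sets tested. Of all probe sets tested, 51.8% were higher under drought in WT and 58.2% in osnadk1. The median in osnadk1 was 0.33 in set A and 0.86 in set B, and in WT -0.11 and -0.13. Non-overlap of the genotypes limits how far a member can rise in osnadk1 or fall in WT. The rule also takes probe sets with low signals on these same osnadk1 arrays. One that is low by scatter under normal growth meets it more easily and then reads as higher under drought. The numbers of members at an unadjusted p for drought are therefore not independent of the rule. For drought in WT 0 members passed an adjusted p of 0.05 in limma, as did 0.00624% of all probe sets tested, and for drought in osnadk1 0 members and 0%. At an unadjusted p under 0.05 in WT there were 7 members (11.1%) against 9.77% of all tested, and in osnadk1 17 members (27.0%), all higher, against 7.29% of all tested that were higher. Without osnadk1 normal replicate 3, 5 members passed as higher under drought in osnadk1 (Os06g0133500, Os01g0384800, Os02g0806300, Os01g0667600 and LOC4325760, limma, adjusted p from 0.0161 to 0.0389), when 2692 of all probe sets passed in either direction. Os06g0133500 had the firmest increase in osnadk1, 1.96 ± 0.39 log2 units (± SE, limma, adjusted p = 0.352), with 1.72 in set A and 2.45 in set B. METK3 had the largest in WT, 0.83 ± 0.20 (limma, adjusted p = 0.201), with 0.22 in set A and 1.14 in set B, and in osnadk1 it had -0.01 ± 0.20. It passed without the 3 set A arrays of normal growth (1.03 ± 0.17 log2 units, limma, adjusted p = 0.0335).

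Over both genotypes 1 member (1.59%) passed for drought, against 0.303% of all probe sets tested, or 0.178% that were higher. That was LOC4325760, without a named function, which rose by 0.57 ± 0.09 log2 units (± SE, limma, adjusted p = 0.042). Its signals were 13.08, 12.98 and 13.01 under normal growth and 13.38, 13.66 and 13.47 under drought in WT, and 12.32, 12.21 and 11.92 and then 12.96, 12.62 and 12.85 in osnadk1. All drought arrays of a genotype were above all of its arrays of normal growth, and the rise was 0.411 in set A and 0.749 in set B. The call was lost when any 1 of 11 of the 12 arrays was left out, all but osnadk1 normal replicate 3 (limma, adjusted p from 0.0111 to 0.137 over the arrays left out and the other settings). At an unadjusted p under 0.05 there were 10 members (15.9%), all higher, against 11.2% of all tested that were higher, and they included OsWRKY71 (0.63 ± 0.22, limma, adjusted p = 0.194) and Os06g0133500 (1.09 ± 0.27, limma, adjusted p = 0.115).

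**Figure D5:**
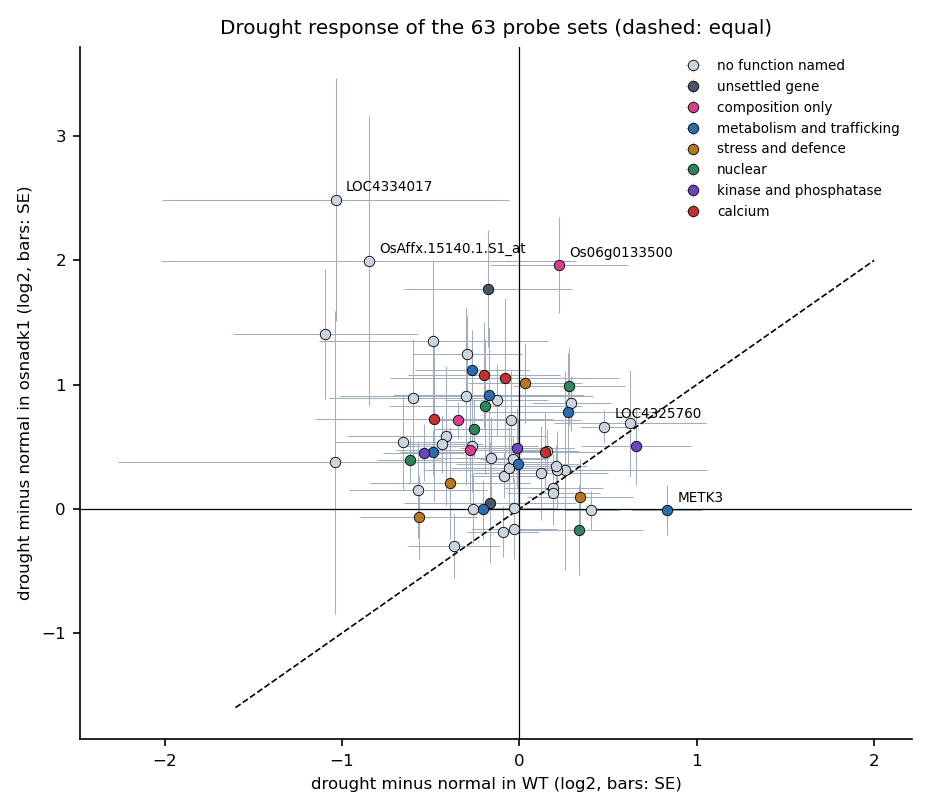
Each point is 1 of the 63 members, coloured by class, with the drought minus normal difference (log2) in WT on the horizontal axis and in osnadk1 on the vertical axis, and grey bars for the SE of the fit. Of the points 55 lie above 0 in osnadk1 and 20 lie above 0 in WT. The dashed line marks equal responses.

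Across the 12 arrays, after each group's mean was taken off, the members were compared with each other. The 1953 pairs of members had a median r of 0.21, and 5.79% of them exceeded 0.8, against a median of 0.011 and 2.33% over all pairs of probe sets tested, as a description of arrays that share their scaling. The calcium-sensor genes shared their swings with genes of other classes. The closest pairs were CML15 with the member assigned to LOC4334438 (r = 0.974), OsCCD1 with the same probe set (0.968) and LOC4325662 with OsCCD1 (0.961), and LOC4339366 paired with the harpin-inducing protein gene Os04g0685300 at 0.937. The mean over all 63 members was 8.86 on osnadk1 normal replicate 1, 8.36 on replicate 2 and 8.14 on replicate 3, and 9.24, 8.66 and 9.20 on the osnadk1 drought arrays. On the WT arrays it ran from 9.98 to 10.34. In this mean of the members the osnadk1 arrays thus differed among themselves by more than the WT arrays did. The SD over 6 arrays was larger in osnadk1 for 46 of the 63, and the share over all probe sets was not computed. That SD includes the drought difference, and the rule takes low osnadk1 signals, so the number does not describe the arrays at large.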

How the data were processed

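The deposited table holds log2 signals of 57381 probe sets, which the authors made with MAS5 (version not given in the sources used here) and scaled on each array to one target. No other normalization was applied. Depth has no meaning for arrays, and 3 arrays a group limit the precision. The members and gene lists were chosen with earlier results of these data known, and the lists were matched by gene name in the reference (assembly ASM3414082v1), so genes it does not name are not in them. Lectin receptor-like kinases had no probe set and RING-H2 ligases no name there. Names of 28 members come from the reference or the study's annotation. Named genes followed a fixed rule (the 8 largest differences, members called for drought or the interaction, list members, those with other probe sets or near OsNADK1, and those nearest the limits), extended to all members with a function. A model of the 4 group means with a mean-variance trend was run in limma (3.58.1, R 4.3.3), and p-values were adjusted by Benjamini-Hochberg over 32066 probe sets. The fit was tested on simulated data. Alternatives were quantile normalization, median centring, a pseudocount of 16, no filter, no trend, blocks, sets and arrays left out, and other limits of the rule. Promoter and protein sequences were not used here.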

Additional observations from a re-analysis of the deposited data

Results flagged for a closer look

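Among the array's 64 reporter control probe sets, which the members leave out, 3 separated the genotypes the other way round, with all osnadk1 values above all WT values. This was found outside the main measurement. Their means over the 6 osnadk1 arrays were 13.28, 10.0 and 7.35 log2 units. The WT arrays read from 0.727 to 2.97, from 0.332 to 4.60 and from 0.48 to 5.31 in the same order, where array medians were 5.08 to 5.43.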

How the results depend on the processing

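The number of probe sets meeting the rule was 60 with quantile normalization (56 shared with the 63), 58 with median centring (50 shared), 61 with a pseudocount of 16 (60 shared), 45 at a difference of at least 1, 54 at a WT mean of at least 8 and 90 with non-overlap asked only within each treatment. Without the 3 set A arrays of normal growth it was 120, of which 55 shared, and with 1 array left out it ran from 63 to 112, over 1.5 times as many without WT normal replicate 1 (112) and osnadk1 drought replicate 3 (99). The mean difference of all 63 kept its direction and moved by less than 1 SD under the 3 scalings.

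The 1 member called for drought over both genotypes became 0 with median centring, no filter, no trend and the replicate block, 2 without the set A arrays of normal growth, 18 with set B alone and 0 to 3 with 1 array left out. For drought in osnadk1 the count of 0 became 1 without the set A arrays of normal growth (27 of all probe sets), 18 with set B alone (631 of all), and 0 to 5 with 1 array left out, with 5 without osnadk1 normal replicate 3. In the same fits of sets the count for drought in WT became 1 and 6 (456 and 1504 of all), and for the interaction 1 and 12 (13 and 370 of all), and both stayed at 0 with any 1 array left out. Of all probe sets, 97 passed for drought over both genotypes, 54 without the filter, 33 without the trend, 1465 with the prefix set as a block, 1654 in set B alone, 147 without the set A arrays of normal growth and 3454 without osnadk1 normal replicate 3. Set B has 1 osnadk1 array a treatment, whose spread comes from WT alone. Over treatments within a genotype, same-numbered arrays correlated at 0.008 to 0.107. Over all 18 pairs of same-numbered arrays the range was -0.267 to 0.32, with 6 over 0.1. Between the genotypes, numbers 1 to 3 gave 0.197, -0.267 and 0.32 under normal growth and 0.176, -0.02 and 0.234 under drought. Numbers 1 and 3 are of the same set in both genotypes, whereas number 2 is of set A in osnadk1 and set B in WT. Pairing of the genotypes by number can therefore not be told apart from the sets. With the replicate block 129 of all probe sets passed for drought over both genotypes, against 97 without it.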
